A study of Homo sapiens with 9 samples.

Results

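The mRNAs of 42 genes for actin and for the proteins that assemble, cut, cap and pull its filaments, or tie them to the plasma membrane, were followed in the vesicles released by H9 human embryonic stem cells (hESCs). Members were taken by gene symbol: every probe set whose array annotation names 1 of the 42 genes, alone or with other genes, was included. The annotation held 129 such probe sets for 40 of the 42 genes, and ACTR2 and TPM3 were not analysed here. The rule used no measured value, but the list of 42 genes was chosen with earlier results of these data known. After 3 control probe sets of ACTB were set aside, 126 of the 54613 probe sets tested were members, and 39 genes had a probe set of their own among 19775 genes tested. ACTG1 was measured only by 9 probe sets that it shares with ACTB.

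Microvesicles (MVs) bud from the plasma membrane, whereas exosomes (EXOs) form inside endosomes and leave the cell when these fuse with its surface. Shedding of MVs is known to depend on the actin cortex below the membrane. Small GTPases such as RHOA and ARF6 act through kinases on myosin II, which contracts the cortex, while the ERM proteins (ezrin, radixin and moesin) link actin filaments to membrane proteins. The proteins of this machinery are the parts with a known role in shedding, and the arrays measured their mRNAs.

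Total RNA from 3 MVs, 3 EXOs and 3 non-fractionated hESEVs samples was hybridized to Affymetrix HG-U133 Plus 2.0 arrays, and all samples came from the same hESC line, grown without serum or feeder cells in mTeSR-1 medium on Matrigel. Conditioned medium was cleared at 300g and at 2800g, after which MVs were pelleted at 16500g for 1 h and EXOs at 120000g for 2 h. The labels describe hESEVs as the whole pellet of a 120000g spin of 2 h that followed a 300g spin alone, and the paper describes a faster and longer pelleting spin, so the preparation of hESEVs was not settled. The hESEVs hold both fractions, and whether they also hold what the 2800g spin removed was not settled either, since the sources differ on how the medium was cleared. No genotype or treatment differed between the groups, and the 3 samples of each group were described as separate cultures of 1 line.

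Values were MAS5 signals, an intensity on a linear scale that was set to the same average on each array. That average left out the brightest 2% and the dimmest 2% of probe sets. A level is thus relative to this average and not a share of all RNA, and the amount per vesicle was not measured. Median signals ranged between 358 and 365 for MVs, between 422 and 430 for EXOs, and between 415 and 421 for hESEVs. The brightest 1% of probe sets began between 8737 and 9346 for MVs, between 2913 and 3015 for EXOs, and between 3975 and 4337 for hESEVs, so bright signals were spread more widely in MVs. The mean signal under which 90% of 61 tissue-restricted genes fell, used as a background level, was 962 in MVs, 1324 in EXOs and 1088 in hESEVs. Of 13 pluripotency genes, taken as a check of the stem cell label, 11 had means above the background level in MVs, 3 in EXOs and 10 in hESEVs, and 11 were called higher in MVs than in EXOs. The 8 markers of fibroblasts and smooth muscle, cells that are rich in actin, gave no call, with a summed signal between 5992 and 6912 for MVs, 6742 and 7506 for EXOs, and 6019 and 6386 for hESEVs.

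Most of the actin machinery was higher in MVs than in EXOs. Calls required both a 2-fold difference and a Benjamini-Hochberg adjusted p below 0.05 over all genes tested (limma). Of the 39 member genes, 25 were higher in MVs, 1 was lower and 13 were not called, against 11.6% of all genes higher in MVs and 2.77% higher in EXOs. The median log2 fold change, MVs minus EXOs, was 1.65 over the members and -0.23 over all genes, and 35 of the 39 values were above 0. Bright genes were called more often in general: of the 3113 genes whose hESEVs mean lay above the hESEVs background level, 29.9% were higher in MVs. Of the members above that level 20 of 27 were called higher, and of those not above it 5 of 12. The share over all genes not above that level is not given here. For 11 of the 25 members higher in MVs the EXOs mean was under the EXOs background level, so that the size of the fold rests on an EXOs level not resolved from it: ARPC1A, ARPC1B, ARPC2, ARPC3, DSTN, PFN1, CAPZA2, RHOA, LIMK1, MYL12B and MYH10.

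The 13 members without a call were ARPC4, ARPC5, CFL2, RHOC, CDC42, ARF6, ROCK1, ROCK2, WASL, MYL9, MYL12A, MYH9 and TPM4. The number of members higher in MVs was 18 when arrays were quantile normalized, a step that gives each array the same distribution of signals and so removes the wider spread in MVs, and 10.7% of all genes were then higher in MVs. ACTB, ACTR3, CAPZA1, CAPZB, MYL12B, PFN2 and TPM1 were the calls lost there.

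**Figure D1:**
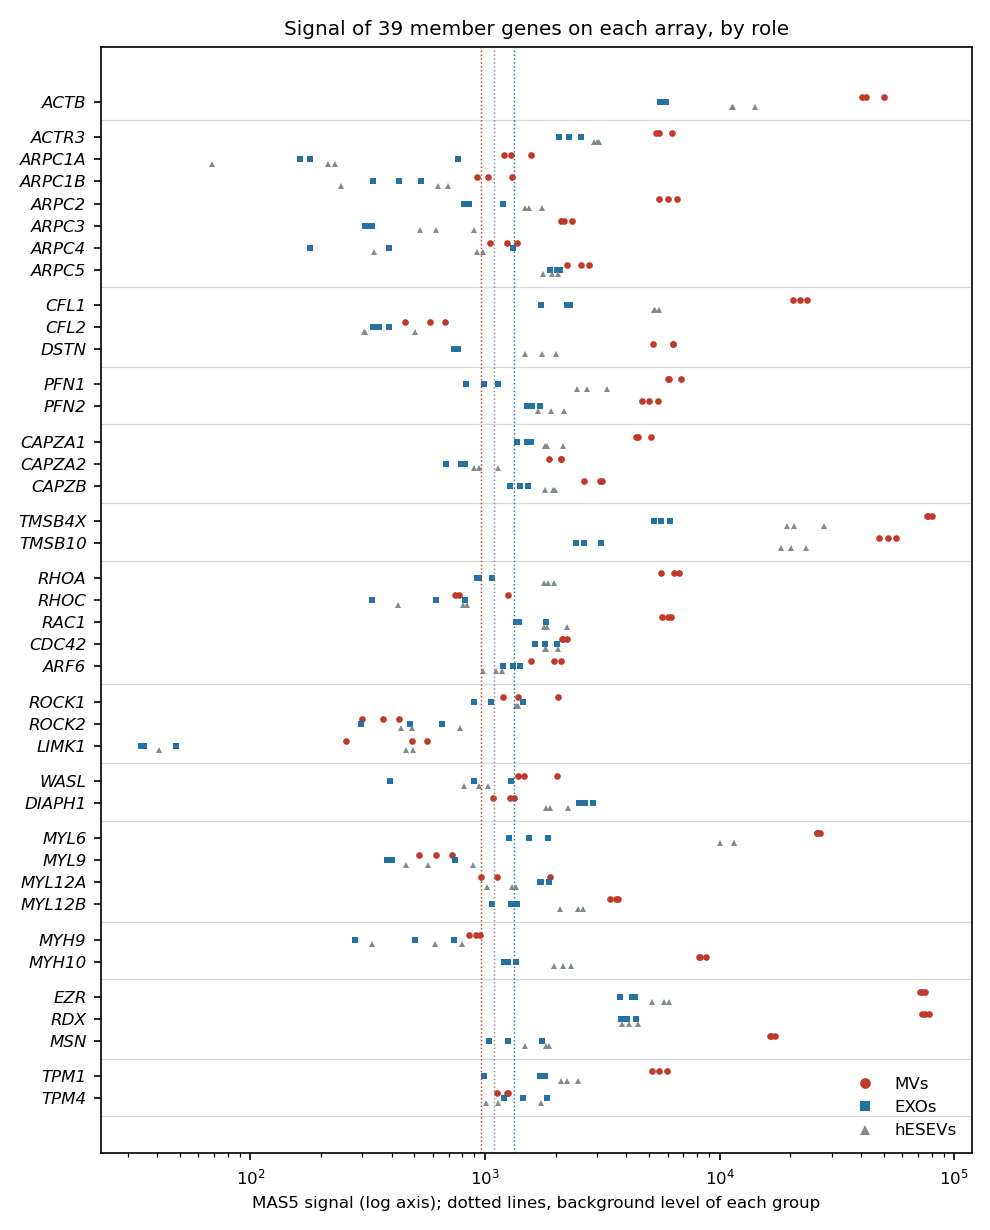
Signal of each of the 39 member genes (rows, grouped by role) on every array, on a log axis in MAS5 units, with 3 points each for MVs, EXOs and hESEVs and dotted lines at the background level of each group. EZR, RDX, TMSB4X and TMSB10 reach 47550 to 80656 in MVs, far right of their EXOs points, while CDC42, ROCK1 and TPM4 stay close together in all groups.

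**Figure D2:**
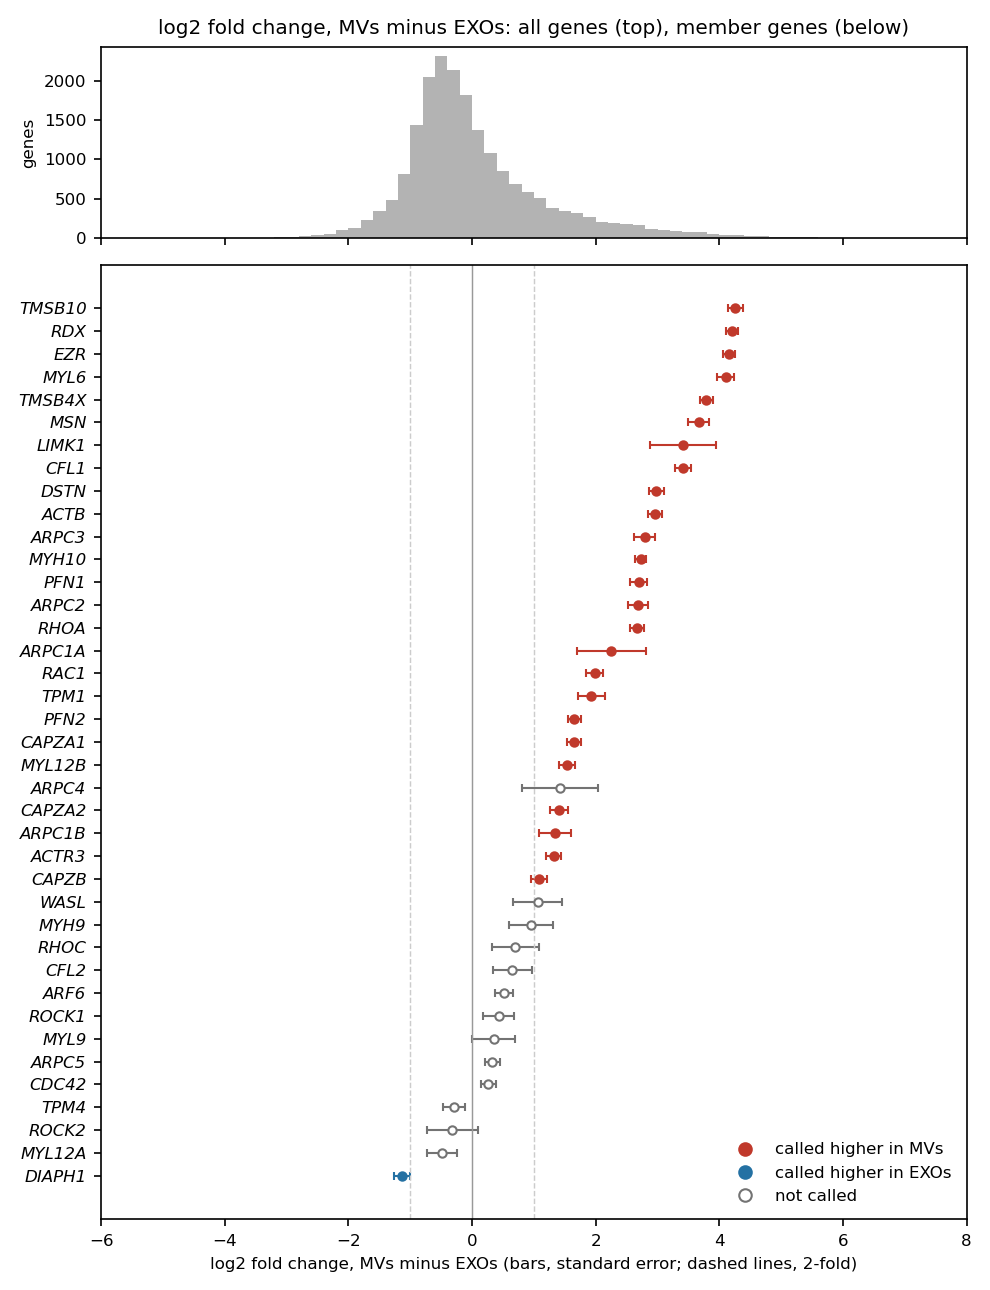
The upper panel is a histogram of log2 fold changes, MVs minus EXOs, over all 19775 genes, and the lower panel gives the 39 member genes with standard errors from limma on the same axis. The bulk of all genes lies just below 0, whereas 25 members are called above 2-fold and DIAPH1 alone is called below.

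ACTB, which encodes the beta-actin of the cortex, had signals of 40554, 50027 and 41843 in MVs, 5568, 5549 and 5904 in EXOs and 14139, 11400 and 11245 in hESEVs. The arrays of the 3 groups did not overlap, and MVs were highest. The mean was 44141 ± 5138 in MVs and 5674 ± 200 in EXOs (SD, n = 3 each), a 7.75-fold difference (limma, log2 fold change 2.95 ± 0.11 SE, adjusted p = 4.56e-07). With quantile normalization this difference was 0.43 on the log2 scale and under the 2-fold limit. ACTB was also higher in MVs than in hESEVs, by 1.85 on the log2 scale, and lower in EXOs than in hESEVs, by -1.10.

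ACTG1 encodes the other cytoplasmic actin, gamma-actin, whose protein differs from beta-actin in only a few residues. The 9 probe sets shared by ACTG1 and ACTB cannot separate the mRNAs. All 9 were higher in MVs than in EXOs (limma over all probe sets), with a median log2 fold change of 3.07 and a range of 2.83 to 3.71. The widest difference among them was at a probe set with 61495, 73989 and 66228 in MVs, 5118, 5089 and 5112 in EXOs and 16968, 14418 and 15677 in hESEVs. Both actins or either of them may carry these signals.

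The Arp2/3 complex starts new filaments on the side of old ones and builds branched networks. Of 7 subunits tested, 5 were higher in MVs, with log2 fold changes of 2.79 for ARPC3, 2.69 for ARPC2, 2.25 for ARPC1A, 1.34 for ARPC1B and 1.32 for ACTR3. ARPC3 gave 2168, 2107 and 2341 in MVs, 330, 317 and 307 in EXOs and 616, 527 and 893 in hESEVs, with no overlap between the groups (limma, MVs against EXOs, adjusted p = 8.88e-06). ARPC5, the subunit with the smallest difference, gave 2769, 2574 and 2228 in MVs, 2088, 2032 and 1889 in EXOs and 1759, 1920 and 2045 in hESEVs. MVs were above EXOs on every array for ARPC5, but the difference of 0.33 was not called (limma, adjusted p = 0.0869), and it was -0.51 after quantile normalization.

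Single arrays stood apart for ARPC1A and ARPC4. EXOs array 1 read 769 for ARPC1A while the other two EXOs arrays read 163 and 180, and the call for ARPC1A was lost when any MVs array, EXOs array 2 or EXOs array 3 was left out (limma, adjusted p 0.0683 to 0.0882). It was kept without EXOs array 1, and the log2 fold change of ARPC1A stayed between 1.86 and 2.98 whichever array was left out. ARPC4 had 389, 1315 and 180 in EXOs against 1362, 1045 and 1244 in MVs, and it was called higher in MVs, by 2.19, once EXOs array 2 was left out. The means of ARPC1A, ARPC1B, ARPC2, ARPC3 and ARPC4 in EXOs were under the background level, so that their EXOs levels were not resolved from it.

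Cofilin and destrin cut filaments and free their subunits. CFL1, the cofilin of non-muscle cells, had 20578, 23655 and 21990 in MVs, 1735, 2229 and 2305 in EXOs and 5492, 5224 and 5284 in hESEVs, a 10.6-fold difference of MVs over EXOs with no overlap (limma, log2 fold change 3.41 ± 0.13 SE, adjusted p = 4.46e-07). DSTN differed by 2.98 in the same direction. CFL2, the muscle form, had 456, 580 and 674 in MVs, 334, 354 and 388 in EXOs and 304, 501 and 307 in hESEVs. All CFL2 means lay under the background levels, and its difference of 0.65 was not called (limma, adjusted p = 0.189).

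Profilin hands actin monomers to growing filament ends, and both profilins were higher in MVs. PFN1 gave 6087, 6844 and 6050 in MVs, 988, 830 and 1131 in EXOs and 3315, 2463 and 2710 in hESEVs, so that all 3 groups were apart and hESEVs lay in between. PFN2 gave 4663, 5481 and 4997 in MVs, 1587, 1508 and 1710 in EXOs and 1684, 2173 and 1912 in hESEVs, and here hESEVs overlapped with EXOs. Log2 fold changes, MVs minus EXOs, were 2.70 for PFN1 and 1.65 for PFN2 (limma, adjusted p = 2.47e-06 and 1.11e-05). Quantile normalization left 0.70 for PFN2, which ended its call.

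Capping protein is a heterodimer that closes the fast-growing end of filaments. CAPZA1 had 4384, 4472 and 5081 in MVs, 1367, 1502 and 1566 in EXOs and 1835, 1796 and 2139 in hESEVs. CAPZB had 3089, 2653 and 3164 in MVs, 1519, 1272 and 1416 in EXOs and 1980, 1803 and 1957 in hESEVs. MVs were above EXOs on every array for both genes and for CAPZA2, and log2 fold changes were 1.65 for CAPZA1, 1.41 for CAPZA2 and 1.08 for CAPZB. These were among the smallest of the called differences, and none of the 3 differed by call between EXOs and hESEVs. Quantile normalization left 0.80 for CAPZA1 and 0.47 for CAPZB and ended both calls.

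The beta thymosins are short peptides that hold actin monomers in reserve, and their mRNAs were among the members with the largest differences. TMSB10 had 52141, 56465 and 47550 in MVs, 2446, 3107 and 2631 in EXOs and 23368, 20204 and 18257 in hESEVs. Its 19.1-fold difference of MVs over EXOs was the largest of the 39 members, and 104 of all genes had a larger one (limma, log2 fold change 4.26 ± 0.12 SE, adjusted p = 1.61e-07). TMSB4X had 77418, 76148 and 80656 in MVs, 6151, 5251 and 5596 in EXOs and 27937, 20819 and 19296 in hESEVs, a 13.8-fold difference of MVs over EXOs. For both genes the 3 groups were apart, with hESEVs between the fractions, and each was represented by 1 probe set of a kind that can match related transcripts. Quantile normalization left differences of 2.18 for TMSB10 and 1.27 for TMSB4X, both still called.

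Among the small GTPases that set the state of the cortex, RHOA and RAC1 were higher in MVs and RHOC, CDC42 and ARF6 were not called. RHOA, which activates myosin contraction through ROCK kinases, had 5614, 6722 and 6364 in MVs, 921, 1074 and 938 in EXOs and 1779, 1848 and 1965 in hESEVs. The RHOA arrays of the 3 groups did not overlap (limma, MVs minus EXOs, 2.67 ± 0.12 SE, adjusted p = 1.07e-06), and its EXOs mean was under the EXOs background level. RAC1, which drives branched networks, differed by 1.98.

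ARF6, the GTPase of the plasma membrane and recycling endosomes with a known role in MV shedding, had 1972, 2111 and 1570 in MVs, 1314, 1198 and 1414 in EXOs and 982, 1182 and 1114 in hESEVs. MVs were above the other groups on every array, and the difference from EXOs passed the p threshold but not the 2-fold limit (limma, 0.52 ± 0.15 SE, adjusted p = 0.045). CDC42, which acts on filament nucleation, had 2242, 2138 and 2144 in MVs, 1796, 1629 and 2033 in EXOs and 2054, 1798 and 1812 in hESEVs, a difference of 0.26 that was not called (adjusted p = 0.157) and that was -0.41 after quantile normalization. RHOC differed by 0.70 with overlapping arrays and means under the background level in all groups.

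Of the kinases below these GTPases, ROCK1 and ROCK2, which phosphorylate myosin light chains, were not called. ROCK2 had 299, 368 and 429 in MVs, 653, 479 and 295 in EXOs and 489, 780 and 440 in hESEVs, with means under the background level and overlap between the fractions. The ROCK2 difference of -0.32 was not called (limma, adjusted p = 0.614). LIMK1, the kinase that turns cofilin off, had 566, 255 and 486 in MVs, 48, 34 and 35 in EXOs and 494, 41 and 462 in hESEVs. It was called higher in MVs by 3.41 (limma, adjusted p = 0.00266), but its means were under the background level in every group, and its other 2 probe sets gave no call. ROCK1 differed by 0.43 with overlapping arrays (adjusted p = 0.258).

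Neither factor of filament nucleation was called higher in MVs. WASL encodes N-WASP, which switches on the Arp2/3 complex, and had 1387, 2029 and 1471 in MVs, 898, 394 and 1287 in EXOs and 940, 1033 and 815 in hESEVs. MVs were above EXOs on every array, but the difference of 1.06 was not called (limma, adjusted p = 0.0984), although it was 1.30 and called after median centring and was called without EXOs array 3. DIAPH1, a formin that elongates straight filaments below RHOA, had 1324, 1082 and 1277 in MVs, 2522, 2660 and 2875 in EXOs and 2258, 1826 and 1890 in hESEVs. It was the only member called lower in MVs (limma, -1.13 ± 0.13 SE, adjusted p = 0.000357). The call was lost with median centring, at -0.90, and another DIAPH1 probe set was called in the opposite direction.

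Myosin II pulls on actin filaments and is built of heavy chains, essential light chains and regulatory light chains. MYL6, the essential light chain of non-muscle myosin, had 26054, 25916 and 26893 in MVs, 1861, 1533 and 1264 in EXOs and 11454, 10026 and 11556 in hESEVs. The 3 groups were apart, and the 17.1-fold difference of MVs over EXOs was close to that of TMSB10 (limma, 4.10 ± 0.14 SE, adjusted p = 2.96e-07). Its second, dim probe set gave -1.23 and no call. MYL12B, a regulatory light chain, was higher in MVs by 1.53. MYL9, another regulatory chain, was not called at 0.35.

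MYL12A, a regulatory light chain like MYL12B, had the lowest value among the light chains at the probe set that represented it. It had 1119, 1887 and 957 in MVs, 1725, 1711 and 1871 in EXOs and 1349, 1307 and 1017 in hESEVs. These MVs and EXOs arrays overlapped (limma, -0.48, adjusted p = 0.19). A second MYL12A probe set had 2293, 2356 and 2699 in MVs, 691, 306 and 524 in EXOs and 1298, 1174 and 1527 in hESEVs, and was called higher in MVs by 2.35. The probe set that MYL12A shares with MYL12B was called higher by 2.91. The light chain genes thus gave different answers at different probe sets.

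Of the heavy chains MYH10 was called and MYH9 was not. MYH10, the heavy chain of myosin IIB, had 8726, 8133 and 8246 in MVs, 1249, 1348 and 1202 in EXOs and 2150, 1965 and 2328 in hESEVs, with no overlap between the groups (limma, MVs minus EXOs, 2.73 ± 0.09 SE, adjusted p = 3.2e-07) and an EXOs mean under the EXOs background level. MYH9, the heavy chain of myosin IIA, had 948, 856 and 915 in MVs, 502, 738 and 279 in EXOs and 331, 798 and 611 in hESEVs. MVs were above EXOs on every array for MYH9, but all its means lay under the background level and its difference of 0.95 was not called (adjusted p = 0.0985). It was called after median centring, at 1.18, and without EXOs array 2.

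Tropomyosins lie along actin filaments and regulate which proteins bind them. TPM1 had 5530, 5986 and 5165 in MVs, 1721, 1808 and 993 in EXOs and 2108, 2496 and 2231 in hESEVs, a difference of 1.93 between MVs and EXOs with no overlap (limma, adjusted p = 0.000375). Quantile normalization left 0.95 for TPM1 and no call. TPM4 had 1246, 1254 and 1126 in MVs, 1447, 1206 and 1834 in EXOs and 1725, 1134 and 1005 in hESEVs, with overlapping arrays and no call (-0.29, adjusted p = 0.281).

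All 3 ERM linkers were more than 12-fold higher in MVs than in EXOs, as were both thymosins and MYL6. RDX (radixin) had 74828, 77900 and 72738 in MVs, 4419, 3799 and 4019 in EXOs and 4498, 3837 and 4114 in hESEVs. EZR (ezrin) had 71539, 74916 and 73117 in MVs, 4234, 3753 and 4360 in EXOs and 5807, 5128 and 6109 in hESEVs. MSN (moesin) had 16344, 16517 and 17289 in MVs, 1258, 1743 and 1043 in EXOs and 1877, 1486 and 1817 in hESEVs. MVs stood far above both other groups for all 3 genes, while hESEVs overlapped with EXOs for RDX and MSN and were just above them for EZR. Log2 fold changes, MVs minus EXOs, were 4.21 ± 0.10, 4.16 ± 0.10 and 3.67 ± 0.17 (SE) for RDX, EZR and MSN (limma, adjusted p = 1.3e-07, 1.3e-07 and 1.67e-06), and were 2.07, 2.01 and 2.52 after quantile normalization, all still called.

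The same 3 genes stood out against hESEVs. MVs exceeded hESEVs by 18.1-fold for RDX, 12.9-fold for EZR and 9.73-fold for MSN (limma, log2 fold changes 4.18, 3.69 and 3.28, adjusted p = 2.68e-09, 6.99e-09 and 6.08e-07). Among all 19775 genes only 1 had a larger fold change than RDX in this comparison, 7 had a larger one than EZR and 31 a larger one than MSN. EXOs and hESEVs were not separated by call for any of them, with differences of -0.02 ± 0.10 for RDX, -0.46 ± 0.10 for EZR and -0.38 ± 0.17 for MSN (SE, limma, adjusted p = 0.948, 0.0176 and 0.324).

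**Figure D3:**
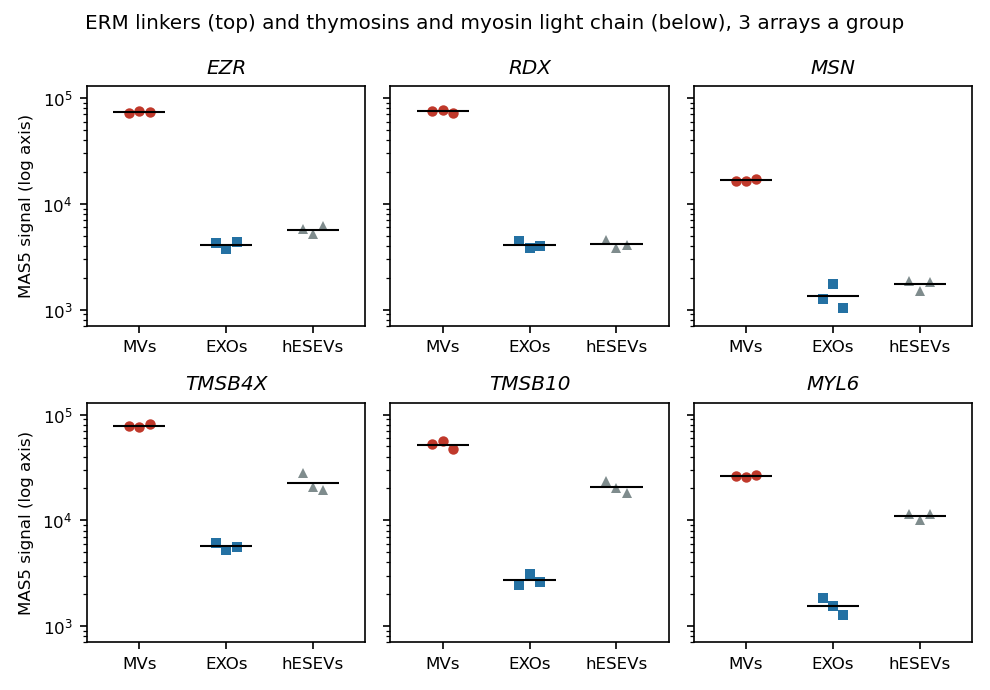
MAS5 signals on a log axis for the 3 ERM linkers (top) and for TMSB4X, TMSB10 and MYL6 (bottom), with 1 point per array and bars at the mean of 3 arrays. All 6 genes are more than 12-fold higher in MVs than in EXOs, but hESEVs sit at or near the EXOs level for the ERM genes and between the fractions for the other 3.

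More than 1 probe set bore on this for EZR. Of its 4 further probe sets, 3 were called higher in MVs than in EXOs by 4.11, 4.10 and 3.74, and higher than in hESEVs by 3.85, 3.58 and 3.45, and none was called between EXOs and hESEVs. The remaining EZR probe set had 335, 486 and 103 in MVs and 67, 121 and 44 in EXOs, and was not called; it is the only EZR probe set of a kind not prone to match related transcripts. RDX was less uniform: a second probe set, with 2526, 2868 and 2754 in MVs, 1386, 1287 and 835 in EXOs and 1305, 1054 and 1267 in hESEVs, was called at only 1.25, and 2 others were not called. The second MSN probe set had 58, 46 and 39 in MVs and 49, 96 and 97 in EXOs and gave no call.

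Where hESEVs lay between the fractions was a feature of each gene and was described as a percent of the way from the EXOs mean to the MVs mean. It was 0.0993% for RDX, 2.27% for EZR and 2.47% for MSN. It was 36.3% for TMSB10, 23.5% for TMSB4X, 38.2% for MYL6 and 34.6% for PFN1, with 17.1% for ACTB and 16.2% for CFL1. Over the 25 members higher in MVs the median was 17.1%, and over all 2293 genes higher in MVs it was 22.1%, with quartiles of 12.9% and 32.8%. A place under 5% was held by 4 of the 25 members, the ERM genes and ARPC1A, and by 10.6% of the 2293 genes. ARPC1A did not lie between the fractions: its place was -20.3%, with hESEVs and EXOs means both under the background level. A low place was therefore not particular to actin genes.

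Across the comparisons with hESEVs, 20 of 39 members were higher in MVs and 0 were lower, against 7.17% of all genes higher in MVs and 1.56% higher in hESEVs (limma). Members called against EXOs but not against hESEVs were ACTR3, ARPC1B, CAPZB, LIMK1 and MYL12B, each above hESEVs by 0.58 to 1.18. No member was higher in EXOs than in hESEVs and 10 were lower, against 0.172% and 3.28% of all genes. These 10 were ACTB, ARPC2, ARPC3, CFL1, DSTN, PFN1, TMSB4X, TMSB10, MYL6 and TPM1, from -1.01 for ARPC2 to -2.92 for TMSB10. All 10 were also higher in MVs than in EXOs, and both comparisons used the same EXOs arrays.

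For ARPC2 and TPM1 the probe set that represented the gene in the fit of 9 arrays was not that of the fit of 6 arrays. At the probe sets of the fit of 6 arrays the differences of EXOs from hESEVs were -0.76 for ARPC2 and -0.64 for TPM1, and neither was called. The median difference of EXOs from hESEVs was -0.38 over the members and 0.001 over all genes. In the comparison of MVs with hESEVs the count was the most sensitive to scaling, since 5 members were called after quantile normalization: ARPC1A, ARPC3, EZR, RDX and MSN. Of all genes 3.04% were then higher in MVs, against 7.17% without that step.

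Single probe sets gave a second view of the members. Of 126 tested, 61 were higher in MVs than in EXOs, 1 was lower and 64 were not called, against 7.23% of all probe sets higher in MVs and 1.97% higher in EXOs (limma over 54613 probe sets). The share followed the signal: of 52 probe sets above the hESEVs background level 43 were higher in MVs, against 18 of 74 not above it. Median log2 fold changes were 2.78 and 0.24 in these groups of probe sets. Genes in general showed such a rise, with 29.9% called higher in MVs above that level against 11.6% of all genes. Shares over all probe sets on each side of the level are not given here.

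**Figure D4:**
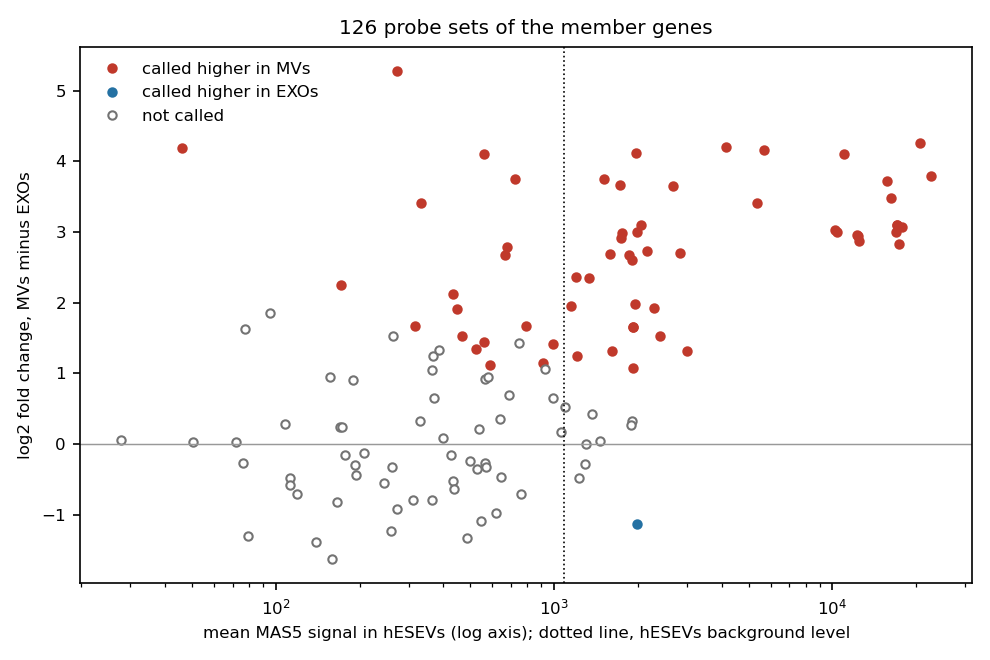
Each of the 126 member probe sets by its mean hESEVs signal (log axis) and its log2 fold change, MVs minus EXOs, coloured by call, with a dotted line at the hESEVs background level of 1088. Right of the line 43 of 52 probe sets are called higher in MVs, and left of it 56 of 74 are not called. The shares over all probe sets on each side are not given.

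For 16 members the probe sets differed by more than 4-fold in their fold change, and the spread was widest for CFL1 (-1.30 to 4.19), MYL6 (-1.23 to 4.10) and TPM1 (-1.63 to 3.66). In CFL1, MYL6 and TPM1 the low values came from probe sets without a call and under the background level in every group. In 5 members the representative probe set gave no call, or the opposite call, while a different probe set was called higher in MVs. These were CDC42 (1.91), MYL9 (5.27), MYL12A (2.35), TPM4 (1.45) and DIAPH1 (1.67). The MYL9 probe set had 1321, 1836 and 818 in MVs, 34, 25 and 31 in EXOs and 181, 314 and 324 in hESEVs, and the EXOs values were at or near the signal floor of 32.

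The ACTB mRNA was also measured near its ends by 3 control probe sets that were left out of the tests. The 3′ probe set had 40878, 41288 and 40104 in MVs, 4815, 4365 and 4160 in EXOs and 12033, 10382 and 10067 in hESEVs. The middle probe set had 7033, 6166 and 6156 in MVs, 1908, 1913 and 2218 in EXOs and 4327, 3720 and 3193 in hESEVs. The 5′ probe set had 1623, 1746 and 1779 in MVs, 806, 642 and 738 in EXOs and 1419, 1014 and 1030 in hESEVs. MVs were highest at each position, but the difference of MVs over EXOs was 9.18-fold at the 3′ end, 3.21-fold in the middle and 2.36-fold at the 5′ end. The 5′ mean in EXOs, 728, was under the EXOs background level, so the 5′ fold and the EXOs difference between the ends rest on a level not resolved from it.

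**Figure D5:**
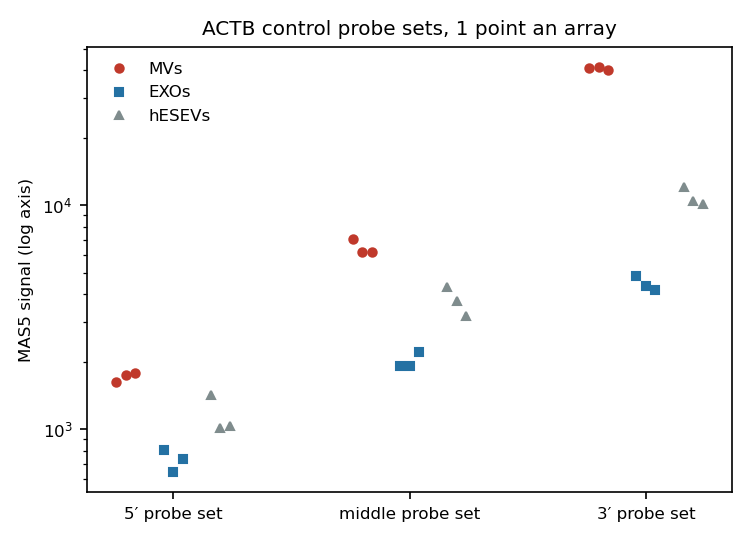
MAS5 signals (log axis) of the 5′, middle and 3′ ACTB control probe sets, 1 point per array in MVs, EXOs and hESEVs. The gap between MVs and EXOs is 9.18-fold at the 3′ probe set and 2.36-fold at the 5′ probe set.

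The log2 difference of the 3′ from the 5′ signal lay between 4.49 and 4.65 for MVs, between 2.50 and 2.77 for EXOs, and between 3.08 and 3.36 for hESEVs. The 3′ and middle EXOs signals were all above the EXOs background level. The log2 difference of the 3′ from the middle signal was 2.54 to 2.74 for MVs, 0.91 to 1.33 for EXOs and 1.48 to 1.66 for hESEVs. For both differences the ranges did not overlap, and 3 against 3 arrays cannot reach a two-sided exact permutation p under 0.1. The paper's electrophoresis of total RNA showed longer RNA in MVs, whereas EXOs held mainly short RNA. What part RNA length had in the differences between the groups was not tested. Nor was the part that the position of the probe set along the mRNA had in the differences of other members.

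Of a wider list of 80 actin genes that are not members, 70 were tested, and 24 were higher in MVs, 3 were lower and 43 were not called (limma). These were 34.3% higher and 4.29% lower, against 11.6% and 2.77% of all genes. The median was 0.39 over this list and -0.23 over all genes. For 60 of the 70 the EXOs mean was not above the EXOs background level. The largest differences were in TPM2, another tropomyosin (5.65, with means of 2863 in MVs and 62.3 in EXOs, where 1 of 3 arrays was under the signal floor), in ANLN, the anillin that anchors actin and myosin in the dividing cell (4.69), and in SPTBN1, a spectrin of the membrane skeleton (4.68). ANLN had 129483, 106181 and 125362 in MVs, 4653, 5135 and 4156 in EXOs and 15083, 12749 and 13219 in hESEVs. The 3 lower genes were ARHGDIB (-2.81), WIPF2, a partner of N-WASP (-1.03), and BAIAP2, a membrane-bending adaptor (-1.02). Their means lay under the background level in MVs and in EXOs, at 227 to 620 in MVs and 820 to 1253 in EXOs.

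Actin genes are textbook targets of serum response factor, which binds the CArG box, and the promoters of the members were searched for this motif, for TATAAA and for GGGCGG, the core bound by Sp1, on both strands of the 250 bases before each start site. RefSeq (GRCh38.p14) gave 53 start sites for 37 of the 42 members. The other 5 members, ACTB among them, were not searched. GGGCGG stood before 44 of the 53 starts (83%), a CArG box before 3 (5.66%) and TATAAA before 2 (3.77%), against 42.6%, 1.16% and 10.7% of the 35116 starts in the table. The CArG boxes were before ACTG1, ROCK2 and TPM4. ROCK2 and TPM4 were not called. ACTG1 was not tested as a gene, and all 9 probe sets that it shares with ACTB were called higher in MVs than in EXOs. GGGCGG was before 23 of 28 starts (82.1%) of members higher in MVs and before 21 of 25 starts (84%) of other members. A match describes letters only.

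The 120 bases before the start are shown for ACTG1 with its CArG box and for the member and the ERM genes with the largest fold changes, 5′ to 3′, with CArG boxes and GGGCGG on either strand in capitals. They are at chr17:81512800-81512919 on the minus strand for ACTG1, chr2:84905536-84905655 on the plus strand for TMSB10, chr11:110296615-110296734 on the minus strand for RDX and chr6:158818236-158818355 on the minus strand for EZR.
ACTG1: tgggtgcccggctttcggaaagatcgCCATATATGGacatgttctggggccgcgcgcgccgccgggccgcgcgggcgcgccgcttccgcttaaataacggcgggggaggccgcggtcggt
TMSB10: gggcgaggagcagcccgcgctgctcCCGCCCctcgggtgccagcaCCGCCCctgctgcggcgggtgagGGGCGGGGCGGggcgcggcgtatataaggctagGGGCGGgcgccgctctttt
RDX: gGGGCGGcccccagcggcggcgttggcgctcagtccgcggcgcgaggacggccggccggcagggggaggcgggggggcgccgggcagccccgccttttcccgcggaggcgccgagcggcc
EZR: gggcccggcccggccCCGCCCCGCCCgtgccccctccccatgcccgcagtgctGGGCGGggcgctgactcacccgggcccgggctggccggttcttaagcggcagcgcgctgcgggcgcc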

How the data were processed

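The authors summarised the array scans with MAS5, whose version is not given in the sources used here, and deposited an intensity for each probe set on a linear scale with a target of 500 and no pooling. Their RMA normalization starts from probe intensities and was not repeated. Signals under 32 were raised to 32 and log2 was taken. Each gene was represented by its single-gene probe set with the highest mean over the arrays of the fit, and no test used the 62 control probe sets. MVs were compared with EXOs on 6 arrays, and each fraction with hESEVs on 9, by two-sided tests in limma 3.58.1 (R 4.3.3), with an intensity trend in eBayes and Benjamini-Hochberg adjustment, after a check on simulated data. The methods name an unpaired Student's t-test, run as an alternative. The number of arrays, 3 per group, limits the precision.

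Members and lists were chosen with earlier results of these data known. By the rule for named genes, every member is named, and every array is given for ACTB, ACTG1, RHOA, ARF6 and the members with the highest and lowest fold change in each role. EZR and the probe sets described singly were added after their values were seen, except those that differed by over 4-fold. The lists were the members, other actin genes, tissue-restricted genes, pluripotency genes, markers of 3 germ layers and trophoblast, and fibroblast and smooth muscle markers. Of the lineage markers, 1 of 6 ectoderm genes was higher in MVs and 1 lower, 1 of 6 mesoderm and 1 of 6 endoderm genes were lower, and 0 of 5 trophoblast genes were called. Of 61 tissue-restricted genes 1 was higher in MVs and 6 were lower. Symbols followed the array annotation, checked by gene ID against RefSeq (GRCh38.p14).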

Additional observations from a re-analysis of the deposited data

How the results depend on the processing

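Same-numbered arrays showed no shared deviation from their group means, with correlations of -0.01 to 0.01 over all probe sets. The paper names 3 hESC cultures as the source of MVs and EXOs, so both fractions may come from the same cultures. Correlations over all probe sets, most of them dim, cannot exclude this. A fit with a replicate block gave 25 members higher in MVs than in EXOs, with 11.3% of all genes, and changed no call of a member gene there. It gave 59 member probe sets, with 6.45% of all probe sets. Over the 39 members and the alternatives other than keeping the probe sets, 689 values of the MVs and EXOs comparison kept their direction and their side of the threshold, 22 lost a call, 7 gained one and 13 reversed. Leaving out 1 array moved the number of members higher in MVs than in EXOs between 24 and 26, higher in MVs than in hESEVs between 19 and 20, and lower in EXOs than in hESEVs between 8 and 12. The shares over all genes were 9.45% to 11.7%, 5.71% to 6.73% and 2.71% to 3.38%. Without hESEVs replicate 1, ACTB, ARPC2 and TPM1 were not called lower in EXOs than in hESEVs. That call of ARPC2 was also lost without EXOs replicate 1 or 3 and ARPC3 without hESEVs replicate 3. Without hESEVs replicate 2, CAPZA2 was not called higher in MVs than in hESEVs.

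Quantile normalization gave 5 members higher in MVs than in hESEVs, with 3.04% of all genes, and turned ARPC5 (-0.51) and CDC42 (-0.41). Without probe sets ending in _s_at or _x_at, 32 members could be tested. Of these 15 were higher in MVs than in EXOs, 10 higher in MVs than in hESEVs and 4 lower in EXOs than in hESEVs. The shares over all genes were 7.64%, 4.24% and 1.6%. ACTB, ARPC2, CAPZA1, DSTN, EZR, LIMK1, MYL6, PFN2, TMSB10 and TMSB4X lost their call against EXOs or had no probe set left. The differences of ARPC5 (-0.70), ROCK2 (1.04), LIMK1 (-0.27) and MYL6 (-1.23) turned. Averaging probe sets left 0 members lower in MVs and 15 other actin genes higher and 0 lower, against 8.95% of all genes higher and 2.2% lower. It turned ARPC5 (-0.10), ROCK1 (-0.32), ROCK2 (0.36), DIAPH1 (0.047) and TPM4 (0.15). Adding probe sets of several genes turned MYL12A (2.91). Median centring left 0 members, 0 member probe sets and 0 other actin genes lower in MVs, against 0.976% of all genes and 0.615% of all probe sets. The methods' t-test gave 25 members higher in MVs than in EXOs at its own threshold, with 12.2% of all genes. After Benjamini-Hochberg adjustment it gave 24, with 8.37% of all genes. Adjusted, it gave 5 members lower in EXOs than in hESEVs (1.05% of all genes) and 1 other actin gene lower in MVs (1.17%). The number of member probe sets lower in MVs was 2 adjusted (0.815% of all probe sets) and 4 unadjusted (4.85%). That number was 2 with a floor of 100, 3 after a filter on low signals, 2 without the trend, and 1 to 2 when 1 array was left out. The shares over all probe sets were 1.79%, 5.21%, 1.25% and 1.05% to 1.44%. Other actin genes lower in MVs numbered 0 to 3 when 1 array was left out (1.62% to 2.39% of all genes), and ROCK2 ranged from -0.44 to 0.052. The probe set of each gene was chosen again there, and for ROCK2 without EXOs replicate 3 it was another one than in the report. With the probe sets kept, an alternative chosen after seeing the data, ROCK2 ranged from -0.63 to -0.06, TPM1 kept its call without hESEVs replicate 1, and members higher in MVs than in EXOs numbered 24 to 26, higher in MVs than in hESEVs 19 to 20 and lower in EXOs than in hESEVs 9 to 11. Beyond what each alternative does by construction, the cause was not tested.

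Levels under the background level, where 20 of 39 members lay in EXOs, are not resolved from unspecific signal, so that the folds of the 11 called members among them rest on EXOs values without a sure level. RMA and the background correction of the scans could not be varied, since probe intensities were not used here.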
